A study of Mus musculus with 18 samples.

Results

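Coinhibitory receptors are surface proteins that restrain T cell responses after antigen recognition, and regulatory T cells (Tregs) use several of them to suppress other cells. The group examined here comprised 10 genes, *Ctla4*, *Pdcd1*, *Btla*, *Tigit*, *Cd96*, *Cd226*, *Lag3*, *Havcr2*, *Cd160* and *Cd200*. They were found by symbol among the 50600 genes of the count table. RNA-seq gave their expression in Foxp3+ Tregs sorted by FACS from 18 C57BL/6 mice in 4 groups, 1 mouse per library, to compare Tregs with and without CD25, the alpha chain of the IL-2 receptor that *Il2ra* encodes. Thymic CD25 KO Tregs came from 5 CD25 flox/Foxp3-YFP/Cre mice at 3–4 weeks of age, which had been “cured” of autoimmunity by WT splenocytes injected after birth, so that these hosts held transferred cells. Thymic WT Tregs came from 5 mice of the same age that carried a Foxp3/RFP reporter and normal *Il2ra*. For splenic CD25 KO Tregs, 4 mice of genotype CD25 flox/Foxp3eGFP-Cre-ERT2/R26Y were given tamoxifen at 7–10 weeks of age and Tregs were taken 10–14 days later. Splenic WT Tregs came from 4 tamoxifen-treated reporter controls with normal *Il2ra*. Cre was driven from *Foxp3* in both models, and the thymic WT and CD25 KO mice carried different reporter alleles of *Foxp3*. In the thymus, loss of CD25 therefore cannot be told apart from the *Foxp3* allele with Cre. Nor can it be told apart from the splenocyte transfer, which is described for the CD25 KO mice only. Each tissue had its own mouse model, age and date in the column headers of the count table, so these cannot be told apart from tissue.

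In outline, these receptors act in pairs and competing sets. CTLA-4, PD-1 (*Pdcd1*) and BTLA belong to the CD28 family. CTLA-4 takes CD80 and CD86 away from the costimulatory receptor CD28, PD-1 recruits the phosphatase SHP-2 (*Ptpn11*) when it binds PD-L1 (*Cd274*), and BTLA shares the ligand HVEM (*Tnfrsf14*) with CD160. TIGIT, CD96 and CD226 compete for CD155 (*Pvr*) and related nectins, and CD226 is the costimulatory member of that set. LAG-3 binds MHC class II, TIM-3 (*Havcr2*) binds galectin-9 and other ligands, and CD200 is a glycoprotein that acts through the receptor CD200R on other cells. In Tregs, CTLA-4 is expressed constitutively as a *Foxp3*-dependent effector molecule, whereas TIGIT, LAG-3 and TIM-3 mark activated, effector-type Tregs.

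Levels are given as CPM, counts per 1000000 counts of the library, with libraries scaled by TMM over all 18, as mean ± SD over mice, n = 5 per thymic and n = 4 per splenic group. Fold changes are log2 ratios of CD25 KO over WT within a tissue, with their standard errors (SE), from the quasi-likelihood test of edgeR with Benjamini-Hochberg adjustment over all genes tested. DE genes were called at FDR < 0.01, and “rose” and “fell” are used for DE genes. Total counts were 17239774 to 23993674 per thymic and 25258341 to 32639570 per splenic library. *Il2ra* served as the check of the labels. It ranged from 526 to 683 CPM in thymic WT and from 95.2 to 288 CPM in thymic CD25 KO mice, and from 481 to 534 CPM in splenic WT and from 166 to 208 CPM in splenic CD25 KO mice. Every CD25 KO mouse lay below every WT mouse, and thymic CD25 KO mice 2 and 4 kept the most *Il2ra* in their tissue, with 288 and 236 CPM against 95.2 to 105 CPM in the other thymic CD25 KO mice. Gene counts sum all exons and do not show how much of this RNA lacked the deleted exon. *Foxp3* was present in every library, at 401 to 579 CPM in thymic WT against 274 to 346 CPM in thymic CD25 KO mice, and 319 to 340 and 206 to 237 CPM in the spleen, and it was DE and lower in CD25 KO Tregs of both tissues.

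Promoter sequences of 4 genes are shown first, because *Tigit*, *Havcr2* and *Pdcd1* rose together in splenic CD25 KO Tregs while *Cd96* fell. *Lag3*, which also rose there, is not shown, because no promoter entry was read for it. Each is the RefSeq window of 300 bases on GRCm38.p6, from 250 bases before to 50 bases after the annotated start, read 5′ to 3′ on the strand of the gene. Capitals mark matches to 3 motifs searched on both strands, TTCNNNGAA (the palindrome bound by STAT factors), TGANTCA (AP-1) and TGTTTNC (forkhead), of which no match overlapped another.
Tigit, chr16:43664135-43664434, minus strand: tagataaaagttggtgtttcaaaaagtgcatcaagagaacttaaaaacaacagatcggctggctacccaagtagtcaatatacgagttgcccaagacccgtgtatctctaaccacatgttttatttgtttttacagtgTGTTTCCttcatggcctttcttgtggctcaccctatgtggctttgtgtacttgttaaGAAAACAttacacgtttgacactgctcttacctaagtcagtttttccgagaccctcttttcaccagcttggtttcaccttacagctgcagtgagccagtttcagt
Havcr2, chr11:46454681-46454980, plus strand: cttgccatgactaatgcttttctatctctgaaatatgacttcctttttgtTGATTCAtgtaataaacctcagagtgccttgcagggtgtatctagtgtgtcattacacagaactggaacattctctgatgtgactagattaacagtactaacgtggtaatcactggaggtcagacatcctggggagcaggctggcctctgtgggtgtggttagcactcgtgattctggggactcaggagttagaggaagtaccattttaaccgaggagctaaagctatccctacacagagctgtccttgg
Pdcd1, chr1:94052504-94052803, minus strand: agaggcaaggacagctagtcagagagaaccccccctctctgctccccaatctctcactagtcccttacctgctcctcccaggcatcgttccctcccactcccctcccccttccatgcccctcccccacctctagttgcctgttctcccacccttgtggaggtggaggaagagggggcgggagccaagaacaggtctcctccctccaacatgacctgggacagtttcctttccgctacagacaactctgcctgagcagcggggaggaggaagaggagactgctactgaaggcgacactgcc
Cd96, chr16:46120199-46120498, minus strand: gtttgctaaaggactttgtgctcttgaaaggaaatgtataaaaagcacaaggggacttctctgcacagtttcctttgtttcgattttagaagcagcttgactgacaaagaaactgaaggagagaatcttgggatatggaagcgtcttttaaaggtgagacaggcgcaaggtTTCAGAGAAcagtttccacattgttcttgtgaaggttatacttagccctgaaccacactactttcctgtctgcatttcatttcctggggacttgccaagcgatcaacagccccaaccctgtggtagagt

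The *Tigit* window held 2 forkhead matches, the *Havcr2* window 1 AP-1 match and the *Cd96* window 1 STAT match, and the *Pdcd1* window held none of these letters. A promoter entry was read for 8 of the 10 genes, with 9 windows in all. Besides *Lag3*, the gene without a window was *Cd226*, which was left out of this search. Among the 32851 promoter windows of this length, 8.3% held the STAT, 7.81% the AP-1 and 20.49% the forkhead motif. Of the 9 windows, 2 held the STAT motif (*Cd96* and one of the windows of *Cd160*) and 1 each held the others. A match describes the letters of the window only.

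In CD25 KO against WT Tregs, *Tigit* had the largest thymic change among the 9 receptor genes tested there, and *Havcr2*, *Lag3*, *Tigit* and *Pdcd1* rose in the spleen. In thymic Tregs, 9 of the 10 genes passed the filter on low counts, 1 of the 9 (*Tigit*) was lower at FDR < 0.01 and 0 were higher, against 2.99% and 3.17% of all 16986 genes tested. In splenic Tregs all 10 were tested, 4 were higher and 1 (*Cd96*) was lower, against 5.9% and 3.55% of 17463 genes. The median log2 fold change over the genes tested came to 0.042 in thymic and 0.156 in splenic Tregs, beside -0.002 and -0.006 over all genes. The genotypes had no overlap in CPM for 2 of 10 genes in the thymus and for 7 of 10 in the spleen, where 15.8% and 20.2% of all genes tested had no overlap. RNA of sorted populations cannot tell fewer cells with a transcript apart from less of it per cell.

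**Figure D1:**
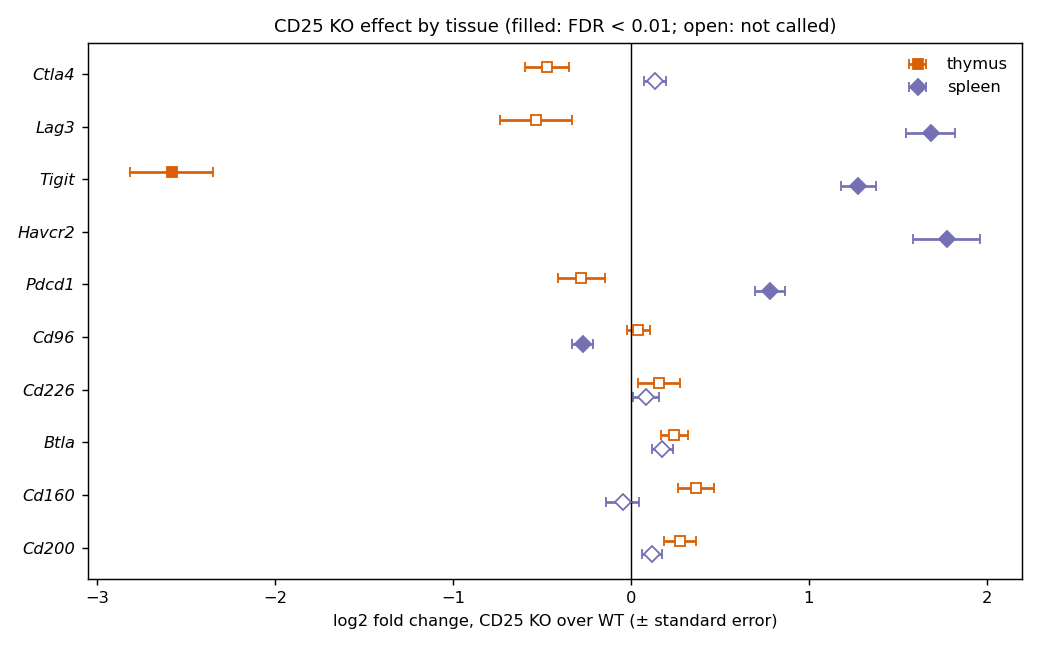
Log2 fold change of CD25 KO over WT (x axis) for each receptor gene (y axis) in thymic (squares) and splenic Tregs (diamonds), with bars of ± SE and filled symbols for FDR < 0.01. *Tigit* lies at -2.58 in the thymus and 1.28 in the spleen, *Lag3* at -0.53 and 1.68, and *Havcr2*, too low for the test in the thymus, at 1.77 in the spleen.

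*Tigit* (ENSMUSG00000071552.4, chromosome 16, 43648867 to 43664146, minus strand) encodes the inhibitory receptor of the CD155 set. Thymic WT mice had 8.24, 7.42, 5.91, 9.66 and 6.56 CPM, and thymic CD25 KO mice 1.25, 1.61, 1.13, 1.63 and 0.587 CPM. All CD25 KO mice were far below all WT mice, and *Tigit* fell by 2.58 on the log2 scale (SE 0.232, edgeR adjusted p = 6.6e-05), a 5.98-fold lower level that rested on 11 to 36 counts per CD25 KO library. In the spleen, WT mice had 88.8, 72.5, 62.8 and 66.8 CPM, and CD25 KO mice 162, 210, 164 and 177 CPM. There it rose 2.42-fold, again without overlap (log2 fold change 1.28, SE 0.0994, edgeR adjusted p = 6.55e-07). Splenic WT Tregs had 9.77-fold more *Tigit* than thymic WT Tregs, so the order of the groups ran from splenic CD25 KO through splenic WT and thymic WT down to thymic CD25 KO, with no overlap between neighbours.

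*Cd96* (ENSMUSG00000022657.9, chromosome 16, 46035657 to 46120251, minus strand) encodes a second receptor for CD155. Its levels were 225, 226, 216, 213 and 211 CPM in thymic WT and 237, 205, 210, 210 and 256 CPM in thymic CD25 KO mice, which overlapped (log2 fold change 0.042, SE 0.0635, edgeR adjusted p = 0.661). Splenic WT mice had 205, 216, 227 and 222 CPM and splenic CD25 KO mice 178, 198, 161 and 191 CPM. The splenic groups did not overlap, and *Cd96* fell by 0.27 on the log2 scale (SE 0.0591, edgeR adjusted p = 0.00472), a 1.21-fold difference. This call was lost in 5 of the 8 fits that left out 1 mouse (WT mouse 2, 3 or 4, or CD25 KO mouse 1 or 3; adjusted p up to 0.0209).

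*Cd226* (ENSMUSG00000034028.15, chromosome 18, 89176967 to 89272229, plus strand) encodes the costimulatory member of the set. It ranged from 42.6 to 57.3 CPM in thymic WT and from 45.6 to 73.0 CPM in thymic CD25 KO mice (log2 fold change 0.16, SE 0.119, edgeR adjusted p = 0.357), a direction that turned to -0.33 once the GC trend of each library was removed. That trend was general in the thymus. Log2 fold change and GC content correlated at a Spearman rho of -0.4 over 16945 thymic genes. Over 17423 splenic genes rho was -0.166, and the cause was not tested. In the spleen *Cd226* ranged from 86.1 to 100.1 CPM in WT and from 89 to 117 CPM in CD25 KO mice (log2 fold change 0.085, SE 0.0731, edgeR adjusted p = 0.476). The genotypes overlapped in both tissues, and the splenic groups lay above the thymic ones.

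Per length of transcript (FPKM, CPM per kilobase of exon), the ratio of *Tigit* to *Cd226* was 0.813 ± 0.139 in WT against 0.127 ± 0.0502 in CD25 KO thymic Tregs, and 4.24 ± 0.909 against 9.70 ± 1.45 in the spleen. No 2 groups overlapped. The ratio was chosen after the values had been seen and was not tested.

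*Lag3* (ENSMUSG00000030124.2, chromosome 6, 124904361 to 124911705, minus strand) encodes the MHC class II receptor. Splenic WT mice had 35.1, 40.3, 38.3 and 25.3 CPM and splenic CD25 KO mice 93.4, 146, 112 and 99.4 CPM. Every CD25 KO mouse lay far above every WT mouse, and *Lag3* rose 3.21-fold (log2 fold change 1.68, SE 0.139, edgeR adjusted p = 9.29e-07). In the thymus, WT mice had 9.36, 7.93, 6.90, 8.38 and 7.5 CPM and CD25 KO mice 3.69, 6.60, 5.83, 7.72 and 3.63 CPM. CD25 KO mouse 4 lay within the WT range, and the log2 fold change of -0.53 (SE 0.201, edgeR adjusted p = 0.0718) was not called. Without CD25 KO mice 2 and 4, which kept more *Il2ra*, it was -0.86 (edgeR adjusted p = 0.00691). These mice also had the most *Lag3* of the thymic CD25 KO mice, so leaving them out could only lower the log2 fold change. Of the 21 alternatives run for thymic *Lag3*, no other called it, and the smallest change among them was -0.405.

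*Havcr2* (ENSMUSG00000020399.14, chromosome 11, 46454935 to 46481255, plus strand) encodes TIM-3 and had the lowest FPKM of the 10 genes in every group. Splenic WT mice had 2.17, 1.80, 2.46 and 3.56 CPM and splenic CD25 KO mice 7.65, 6.97, 9.68 and 10.1 CPM. It rose 3.42-fold without overlap (log2 fold change 1.77, SE 0.187, edgeR adjusted p = 9.9e-06). Thymic Tregs were near the floor of detection, with 25, 16, 7, 28 and 6 counts in WT and 3, 1, 0, 5 and 7 counts in CD25 KO libraries, where 3 counts equal 0.174 CPM or less. Without the filter on low counts the thymic log2 fold change was -2.18 (SE 0.607, edgeR adjusted p = 0.0274), and the groups overlapped.

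*Pdcd1* (ENSMUSG00000026285.7, chromosome 1, 94038305 to 94052553, minus strand) encodes PD-1. In the spleen, WT mice had 113, 94.6, 86.3 and 97.6 CPM and CD25 KO mice 150, 188, 184 and 157 CPM. *Pdcd1* rose 1.72-fold, and the groups did not overlap (log2 fold change 0.78, SE 0.0854, edgeR adjusted p = 1.44e-05). Thymic WT mice had 83.3, 91.0, 72.1, 89.0 and 71.7 CPM and thymic CD25 KO mice 51.0, 73.0, 51.9, 80.2 and 78.2 CPM. CD25 KO mice 1 and 3 were below every WT mouse and the others within the WT range (log2 fold change -0.28, SE 0.133, edgeR adjusted p = 0.145). None of the 21 alternatives called thymic *Pdcd1*, and its log2 fold change ranged over them from -0.423 to -0.164.

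*Ctla4* (ENSMUSG00000026011.13, chromosome 1, 60887000 to 60915832, plus strand) encodes the receptor that removes CD80 and CD86. Thymic WT mice had 78.6, 74.1, 66.0, 73.4 and 71.2 CPM and thymic CD25 KO mice 45.6, 65.9, 43.5, 63.7 and 42.5 CPM. All 5 CD25 KO mice were below all WT mice, mice 2 and 4 only just, and the log2 fold change of -0.47 (SE 0.123, edgeR adjusted p = 0.0193) was not called. It was called without CD25 KO mice 2 and 4 (log2 fold change -0.72, edgeR adjusted p = 9.09e-05), after removal of the GC trend (-0.63, adjusted p = 0.00992) and by DESeq2 (-0.46, adjusted p = 0.00292). Mice 2 and 4 had the most *Ctla4* of the thymic CD25 KO mice, so leaving them out could only lower the log2 fold change. In the spleen, WT mice had 54.1, 54.9, 50.7 and 48.8 CPM and CD25 KO mice 52.1, 60.0, 59.1 and 59.8 CPM, which overlapped through CD25 KO mouse 1 (log2 fold change 0.13, SE 0.0612, edgeR adjusted p = 0.154). Thymic WT Tregs had the highest *Ctla4* of the 4 groups, and the other groups overlapped with their neighbours in order.

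**Figure D2:**
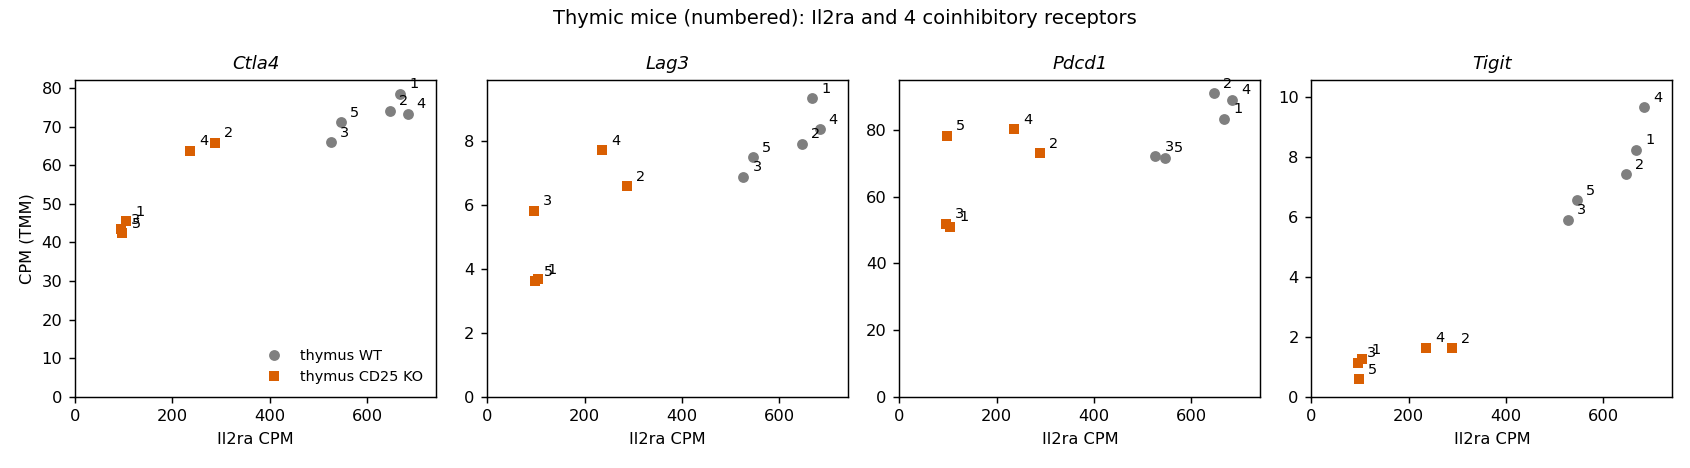
*Il2ra* CPM (x axis) against CPM of *Ctla4*, *Lag3*, *Pdcd1* and *Tigit* (y axes) in the 10 thymic mice, numbered within WT (circles) and CD25 KO (squares). CD25 KO mice 2 and 4, at 288 and 236 CPM of *Il2ra*, had 65.9 and 63.7 CPM of *Ctla4* against 42.5 to 45.6 CPM in the other CD25 KO mice, whereas their *Tigit*, at 1.61 and 1.63 CPM, stayed below the WT minimum of 5.91 CPM.

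*Btla* (ENSMUSG00000052013.14, chromosome 16, 45224315 to 45257670, plus strand) and *Cd160* (ENSMUSG00000038304.14, chromosome 3, 96798763 to 96829351, minus strand) encode the receptors for HVEM. Thymic *Btla* was at 118 ± 8.13 CPM in WT against 139.5 ± 14.4 CPM in CD25 KO mice, with overlap (log2 fold change 0.24, SE 0.0748, edgeR adjusted p = 0.0349), a change that was 0.003 after removal of the GC trend. In the spleen it ranged from 129 to 145 CPM in WT and from 149 to 175 CPM in CD25 KO mice, without overlap but not called (log2 fold change 0.18, SE 0.0567, edgeR adjusted p = 0.0417). Thymic *Cd160* was at 12.6 ± 1.29 CPM in WT against 16.1 ± 1.63 CPM in CD25 KO mice, with 15.2 ± 1.76 and 14.8 ± 0.759 CPM in the spleen, with overlap in both tissues. Its log2 fold change was 0.37 in the thymus (SE 0.0997, edgeR adjusted p = 0.0222; 0.00395 by DESeq2) and -0.046 in the spleen (SE 0.0909, edgeR adjusted p = 0.783). The exons of *Cd160* share 68 bases with *Pdzk1* on the opposite strand, and whether counting used strand is not given in the sources used here.

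*Cd200* (ENSMUSG00000022661.14, chromosome 16, 45382135 to 45409053, minus strand) encodes the ligand of CD200R. It ranged from 72.1 to 96.4 CPM in thymic WT and from 93.6 to 118 CPM in thymic CD25 KO mice (log2 fold change 0.27, SE 0.0892, edgeR adjusted p = 0.0433). In the spleen it ranged from 44.8 to 51.5 CPM in WT and from 51.7 to 56.5 CPM in CD25 KO mice, which barely failed to overlap (log2 fold change 0.12, SE 0.0582, edgeR adjusted p = 0.185). Both splenic groups lay below both thymic groups.

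**Figure D3:**
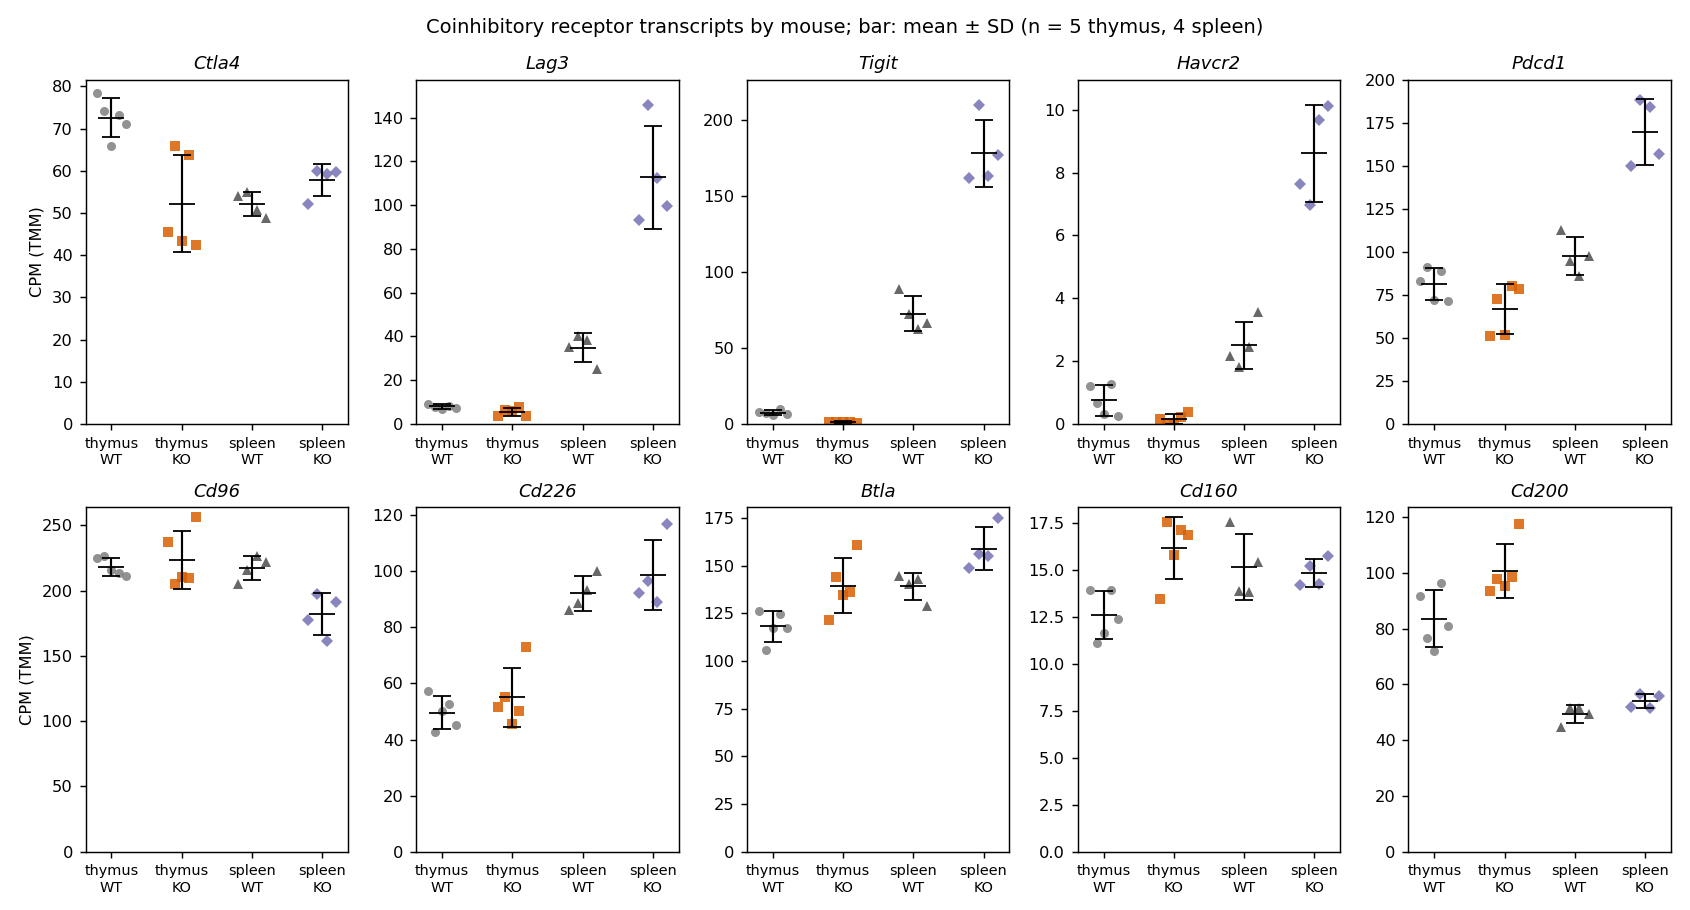
CPM of the 10 receptor genes in each mouse (y axes, linear from 0) by group (x axes), with bars for the mean ± SD of 5 thymic or 4 splenic mice. *Lag3*, *Tigit*, *Havcr2* and *Pdcd1* are highest in splenic CD25 KO Tregs, where *Tigit* reaches 162 to 210 CPM against 0.587 to 1.63 CPM in thymic CD25 KO Tregs, while *Cd96* is lowest there at 161 to 198 CPM.

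The splenic minus the thymic log2 fold change was tested directly in 1 fit of all 18 samples. Mouse model, age and date in the headers cannot be told apart from tissue in this difference. *Havcr2* passed the filter of this fit only through the splenic groups, so its call is not counted here. Of the other 9 genes the difference was called for 4, all toward a higher value in the spleen, and for 0 toward a lower one, against 4.5% and 2.49% of 18686 genes. It was 3.86 for *Tigit* (SE 0.24, edgeR adjusted p = 6.13e-09), 2.23 for *Lag3* (SE 0.261, adjusted p = 1.19e-05) and 1.08 for *Pdcd1* (SE 0.177, adjusted p = 0.000392). For *Ctla4* it was 0.62 (SE 0.15, edgeR adjusted p = 0.00864), a call lost in 16 of the 18 fits without 1 mouse (all but those without thymic CD25 KO mouse 2 or 4; adjusted p up to 0.0269). The remaining differences, from -0.40 for *Cd160* to -0.053 for *Btla*, were not called, and that of *Cd96* was -0.30 (edgeR adjusted p = 0.0343). The fitted *Havcr2* difference of 3.96 (SE 0.632) rests on thymic libraries with at most 28 counts and is given as a description.

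Between WT Tregs, levels in the spleen and the thymus were compared in the same fit, where tissue, date in the headers, mouse model and age cannot be told apart. At FDR < 0.01, of the 9 genes other than *Havcr2*, 4 were higher and 2 lower in splenic WT Tregs, against 21% and 19.5% of all genes. *Tigit* was higher by 3.29 (SE 0.144), *Lag3* by 2.14 (SE 0.181), *Cd226* by 0.91 (SE 0.108) and *Btla* by 0.25 (SE 0.0673) on the log2 scale. *Cd200* was lower, with -0.74 (SE 0.0806), as was *Ctla4*, with -0.46 (SE 0.107). These 6 had edgeR adjusted p between 2e-13 and 0.00337, and the call of *Btla* was lost in 14 of the 18 fits without 1 mouse (adjusted p up to 0.0237). The fitted value of *Havcr2* was 1.76 (SE 0.368), again a description. *Cd96* was not called, at 218 ± 6.98 CPM in the thymus and 217 ± 9.23 CPM in the spleen.

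Per length, *Cd96* was the most abundant of the 10 transcripts in 3 groups, at 99.9 ± 3.20 FPKM in thymic WT, 102 ± 10.1 FPKM in thymic CD25 KO and 99.6 ± 4.22 FPKM in WT splenic Tregs. In splenic CD25 KO Tregs *Tigit* took that place, with 194 ± 24.2 FPKM against 83.4 ± 7.35 for *Cd96* and 88.0 ± 9.96 for *Pdcd1*. The summed FPKM of the 10 genes averaged 260 ± 13.7 in thymic WT against 252 ± 20.6 in thymic CD25 KO mice, and 350 ± 14.7 and 535 ± 48.6 in splenic Tregs. The splenic sums did not overlap, whereas the thymic ones did, over 245 to 275 in WT and 230 to 283 in CD25 KO mice. *Tigit* made up 3.14% of the sum in WT and 0.543% in CD25 KO thymic Tregs, and 22.6% and 36.1% in the spleen. The share of *Cd96* was 38.4% and 40.7% in thymic and 28.6% and 15.6% in splenic Tregs. *Lag3* held 1.46% and 1.04% in the thymus and 4.71% and 9.92% in the spleen. These sums and shares were not tested, and they use the union of annotated exons as the length, not the isoforms in use.

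**Figure D4:**
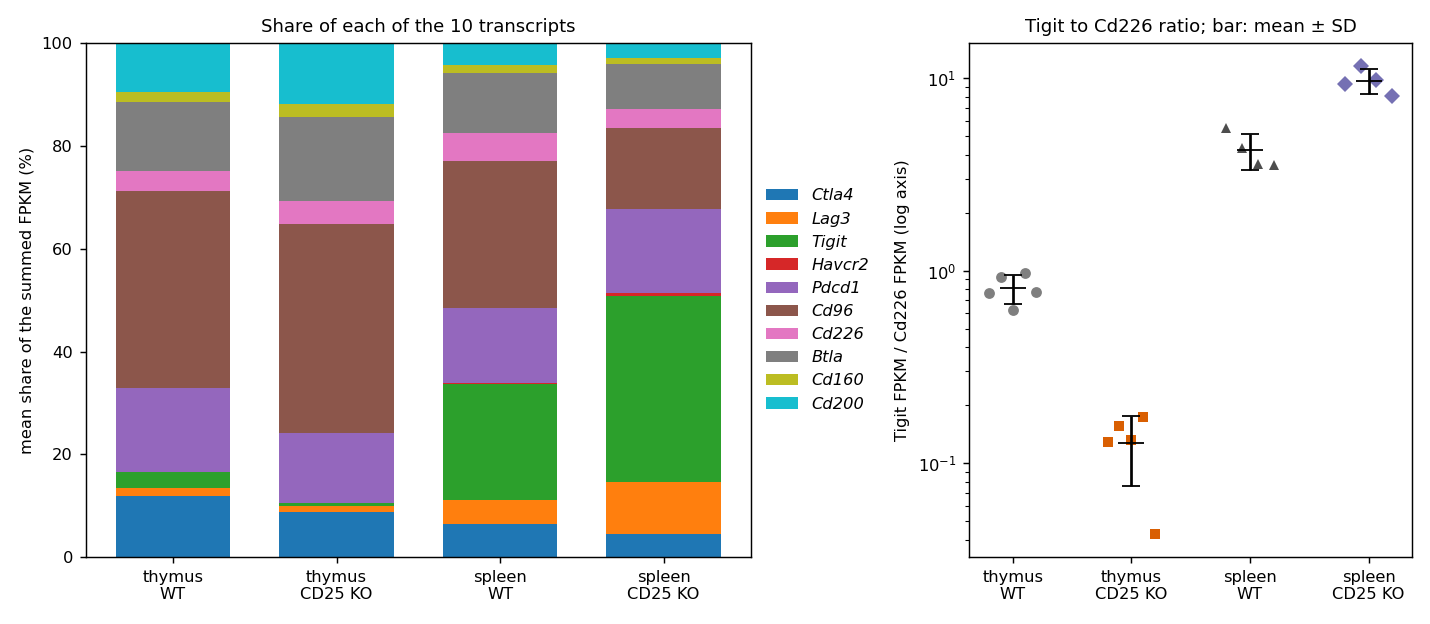
Left, mean share of each gene in the summed FPKM of the 10 genes (y axis, percent) in the 4 groups (x axis); right, ratio of *Tigit* to *Cd226* FPKM in each mouse (log axis), with bars for the mean ± SD. *Tigit* takes 0.543% of the sum in thymic and 36.1% in splenic CD25 KO Tregs, and the mean ratios of these groups are 0.127 and 9.70.

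*Tigit*, *Btla*, *Cd200* and *Cd96* lie together on chromosome 16, in an interval of 2.47 Mb from 43648867 to 46120251 that holds 48 genes of the table. Among the other genes there, 0 were lower and 2 higher (*Abhd10*, *Gm15638*) of 26 tested in the thymus, and 2 lower and 1 higher (*Qtrt2*, *Ccdc80* and *Plcxd2*) of 27 in the spleen. Over all genes tested, 2.99% were lower and 3.17% higher in the thymus, and 3.55% and 5.9% in the spleen. Within it, *Tigit* was called in both tissues, *Cd96* in the spleen, and *Btla* and *Cd200* in neither. The other genes of the interval were chosen after their values had been seen.

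Genes whose pattern over the 18 samples was nearest to each DE receptor were ranked among 13260 genes by the root mean square difference of centred log2 CPM. The nearest to *Tigit* were *Ttbk1* (0.374), *Gm5541* (0.507) and *Atp2b4* (0.515). *Lag3* was nearest to *Smpdl3b* (0.361), *Eea1* (0.379) and *1700019D03Rik* (0.406), and *Pdcd1* to *Rnf125* (0.178), *Serinc3* (0.187) and *Plod2* (0.197). *Havcr2* had no gene closer than *C3* (0.653), followed by *Hmox1* (0.656) and *Bace2* (0.691), and *Cd96* was nearest to *Usp24* (0.0787), *Smim4* (0.08) and *Fbxo25* (0.0842). None of the receptors was among the 3 nearest genes of another.

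Around the receptors, 14 ligand genes, 15 genes of intracellular partners and trafficking, and 10 other inhibitory receptors were counted in the same fits. In the thymus, 13 ligand genes were tested, 1 fell and 2 rose, against 2.99% and 3.17% of all genes. *Cd80*, the CTLA-4 ligand, went from 6.83 ± 1.93 to 1.15 ± 0.617 CPM (log2 fold change -2.54, SE 0.32, edgeR adjusted p = 0.000794), while *Cd86*, the other one, rose from 17.9 ± 1.78 to 29.5 ± 6.05 CPM (0.73, SE 0.132, adjusted p = 0.00437). *Cd274*, the PD-1 ligand, rose by 0.32 (SE 0.0571, edgeR adjusted p = 0.00427). The call of *Cd86* was lost after removal of the GC trend (log2 fold change 0.58, edgeR adjusted p = 0.0113), and the calls of *Cd86* and *Cd274* were lost in several fits without 1 mouse (adjusted p up to 0.0138 and 0.0136).

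In the spleen, 12 ligand genes were tested, 1 fell and 5 rose, against 3.55% and 5.9% of all genes. The CTLA-4 ligands had the opposite signs to the thymus. *Cd80* rose from 3.58 ± 0.186 to 7.77 ± 2.00 CPM (log2 fold change 1.10, SE 0.171, edgeR adjusted p = 0.000334) and *Cd86*, given for comparison with the thymus although outside the 3 largest changes, fell from 37.7 ± 3.72 to 23.8 ± 2.77 CPM (-0.67, SE 0.0853, adjusted p = 5.36e-05). The difference between tissues was 3.65 for *Cd80* (edgeR adjusted p = 3.6e-06) and -1.39 for *Cd86* (adjusted p = 3.45e-05). The largest splenic changes of the list were those of *Lgals3*, a galectin (log2 fold change 1.99, SE 0.163, edgeR adjusted p = 9.17e-07) and *Nectin1*, a ligand of CD96 (1.32, SE 0.162, adjusted p = 4.08e-05). Over the ligands tested, the median log2 fold change came to 0.06 for thymic and 0.181 for splenic Tregs, beside -0.002 and -0.006 over all genes.

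Of the 15 intracellular genes, 0 fell and 1 rose in the thymus, against 2.99% and 3.17% of all genes. In the spleen 0 fell and 4 rose, against 3.55% and 5.9%. *Tox*, a transcription factor of persistently stimulated T cells, rose in both (log2 fold change 0.38, edgeR adjusted p = 0.00577 in the thymus; 0.31, adjusted p = 0.00084 in the spleen). *Ptpn11*, the phosphatase recruited by PD-1, rose in the spleen by 0.49 (SE 0.0582, edgeR adjusted p = 3.17e-05) and had -0.20 in the thymus (adjusted p = 0.0562), a difference of 0.70 (adjusted p = 7.66e-05). *Lrba*, which protects CTLA-4 from degradation, rose in the spleen by 0.31 (SE 0.0656, edgeR adjusted p = 0.00348). The calls of thymic *Tox* and splenic *Lrba* were lost in several fits without 1 mouse (adjusted p up to 0.0178 and 0.0179). Medians were -0.056 in the thymus and 0.152 in the spleen, beside -0.002 and -0.006 over all genes.

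Among the other inhibitory receptors, *Klrg1* alone was called in each tissue, of 7 tested in the thymus and 8 in the spleen. Of all genes, 2.99% fell and 3.17% rose in the thymus, and 3.55% and 5.9% in the spleen. *Klrg1*, a receptor of terminally differentiated effector cells, had 18 to 91 counts in thymic WT and 0 to 1 counts in thymic CD25 KO libraries. As a description, it was at least 12.3-fold lower in the latter against a floor of 3 counts per library. In the spleen it rose from 18.3 ± 1.42 to 31.5 ± 2.15 CPM (log2 fold change 0.77, SE 0.0753, edgeR adjusted p = 4.88e-06). The medians of the list were 0.077 in the thymus and 0.094 in the spleen, beside -0.002 and -0.006 over all genes.

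**Figure D5:**
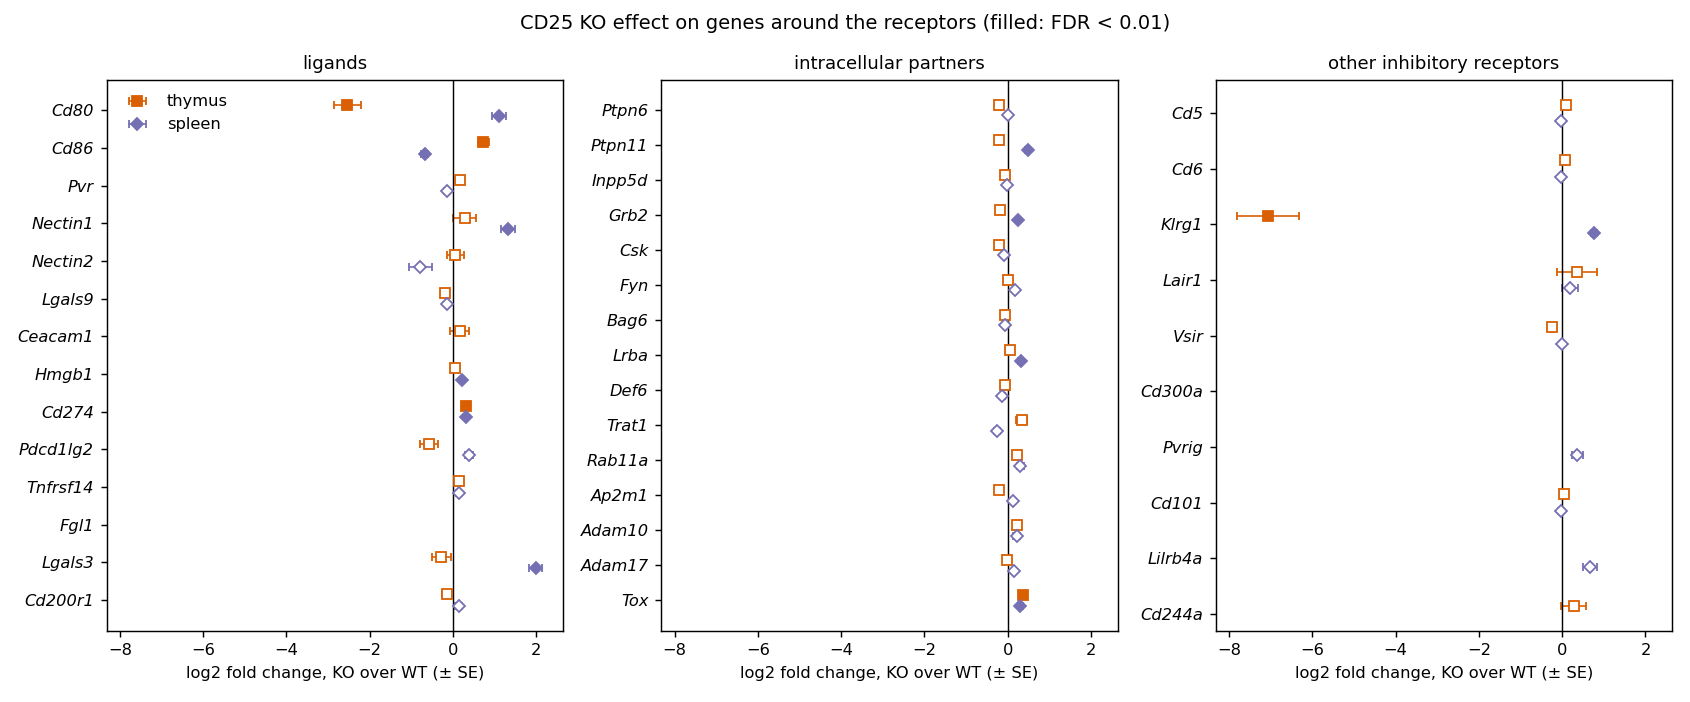
Log2 fold change of CD25 KO over WT (x axes, ± SE) of ligand, intracellular and other inhibitory receptor genes (y axes) in thymic (squares) and splenic Tregs (diamonds), filled at FDR < 0.01 and left out where not tested. *Cd80* and *Cd86* move in opposite directions between the tissues, at -2.54 and 0.73 in the thymus and 1.10 and -0.67 in the spleen, and fitted *Klrg1* lies at -7.08 in the thymus, where CD25 KO libraries had 0 to 1 counts and the fitted value is no bound.

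Marker lists were measured beside these results, and their part in them was not tested. Shares of all genes that fell and rose were 2.99% and 3.17% in the thymus and 3.55% and 5.9% in the spleen. Of 6 effector Treg genes, 4 fell and 0 rose in the thymus and 0 fell and 6 rose in the spleen, where the summed level was 394 to 437 CPM in WT and 552 to 670 CPM in CD25 KO mice. Central Treg genes fell in the spleen (4 of 4), from 1066 to 1322 CPM down to 649 to 780 CPM, and none was called in the thymus. All 5 proliferation genes rose in the spleen, and in the thymus 0 were called, where all 5 had negative log2 fold changes (median -0.66). Their thymic sum spread from 145 to 974 CPM among CD25 KO mice (median 209) and from 455 to 1097 CPM among WT mice (median 569). The 5 genes of Th1 or Tfh cells rose in the spleen, from 133 to 152 CPM in WT to 227 to 271 CPM in CD25 KO mice, and 0 of the 4 tested were called in the thymus.

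Markers of other cells were low, and their sums were higher in splenic CD25 KO mice, where *Lag3*, *Tigit*, *Havcr2* and *Pdcd1* were also higher. The 6 CD8 and NK genes summed to 12.7 to 17.4 CPM in splenic WT and 20 to 28.7 CPM in splenic CD25 KO mice. *Klrb1c* was called higher, and *Ncr1*, which defines NK cells, was at 0 counts in every splenic library. *Gzma* had 4 to 5 counts in splenic WT and 21 to 74 in CD25 KO libraries. It passed the filter only through the CD25 KO group, so its call is not counted. *Cd8a*, *Cd8b1* and *Eomes* were not called (log2 fold changes 0.59, 0.065 and 1.00). The 5 B cell genes summed to 28.4 to 33.3 and 36.3 to 45.3 CPM, with *Cd22* the called gene (11.6 and 22.4 CPM on average). *Cd79a*, at 5.61 and 4.15 CPM, and *Cd79b*, at 13.6 and 14.0 CPM, were not called, and the median log2 fold change of the 3 B cell genes tested was 0.023. The 5 myeloid genes summed to 10.8 to 17.7 and 16.3 to 22.1 CPM, which overlap, with *Lyz2* the called gene (6.10 and 12.6 CPM) and *Cd14* at 1 to 3 counts in CD25 KO libraries. *Csf1r*, at 6.38 and 5.47 CPM, and *Adgre1*, at 1.45 and 0.839 CPM, were not called, and the median of the 3 myeloid genes tested was -0.235. In the thymus none of these 3 lists had a called gene. CD8 and NK sums there were 23.4 to 57.4 CPM in WT and 27.2 to 35.7 CPM in CD25 KO mice, B cell sums 11.4 to 14.2 and 10.4 to 14.2 CPM, and myeloid sums 4.03 to 19.9 and 2.21 to 14.1 CPM. Immature thymocyte genes summed to 54.8 to 151 CPM in thymic WT and 65.7 to 113 CPM in thymic CD25 KO mice, with 0 called, and *Rag1* was at 0 counts in every splenic library. Of the 6 Treg genes, 4 fell and 0 rose in the thymus, and 1 (*Foxp3*) fell and 3 rose in the spleen. The shares of all genes that fell and rose are those given above.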

How the data were processed

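The deposited values are raw read counts per gene: the authors aligned 75-bp paired-end reads of ribosome-depleted RNA to GRCm38 with STAR 2.5.0b and counted them on GENCODE M13 genes with featureCounts 1.5.0. Strand setting and handling of multimapping reads are not given in the sources used here. Symbols, positions, GC content and exon lengths came from GENCODE M21 (50376 of 50600 identifiers matched). Groups followed the labels.

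In R 4.3.3, genes were kept by filterByExpr, scaled by TMM and tested with edgeR 4.0.16 (glmQLFit, glmQLFTest; FDR < 0.01, Benjamini-Hochberg over all genes tested), within each tissue, and over all 18 samples with 4 groups for the difference and the WT contrast. Standard errors are the log2 fold change over the square root of F. DESeq2 1.42.0, the tool of the study's methods, RLE and upper-quartile scaling, other filters, FDR < 0.05, GC offsets (lowess span 0.3), all 18 samples in 1 fit, leaving out mice, and mouse number as a block were alternatives. The procedure was tested on simulated data.

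The receptors, lists and tests were chosen with earlier results of these data known. All 10 receptors are described; of the ligand, intracellular and other inhibitory lists, the DE genes with the 3 largest changes per tissue are named; nearest patterns needed an average log2 CPM of at least 1 (prior count 2); marker lists are given as sums, with called markers, others of the same list and those at or near 0. Other genes outside this rule are marked. The level of 1 marker gene is not reported here. The lowest chi-square per gene between mice of a group was 4.1, so no library was counted as a duplicate. A floor of 3 counts corresponds to 0.0919 to 0.174 CPM, and covers counting error only.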

Additional observations from a re-analysis of the deposited data

Results flagged for a closer look

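Among 40 groups of 1 gene in 4 or 5 mice that were examined, 2 held a mouse far from the rest, about as many as chance gives (1 in 20). *Ctla4* in splenic CD25 KO mouse 1 was 52.1 CPM, against 59.1 to 60.0 CPM in the other 3 mice. *Cd200* in thymic CD25 KO mouse 5 was 117.6 CPM, against 93.6 to 98.6 CPM in the other 4.

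The splenic and thymic log2 fold changes differed, by edgeR's test of the difference, for *Tigit* (3.86), *Lag3* (2.23), *Pdcd1* (1.08) and *Ctla4* (0.62). Mouse model, age and date in the headers cannot be told apart from tissue here. The call of *Ctla4* was lost with upper-quartile scaling and in 16 of the 18 fits without 1 mouse (edgeR adjusted p up to 0.0269). For *Tigit* the fall in the thymus and the rise in the spleen were each called. *Havcr2* also passed the threshold (3.96), but it entered that fit only through the splenic groups, with 0 to 28 counts in thymic libraries, so its value is a description.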

How the results depend on the processing

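Over 857 pairs of a receptor's log2 fold change and an alternative, 777 kept direction and call, 38 lost and 20 gained a call, and 22 turned direction. *Tigit* in both tissues, and *Lag3*, *Havcr2* and *Pdcd1* in the spleen, kept their calls under every alternative run. The receptors called in the thymus numbered 1, and 3 with DESeq2 (*Ctla4*, *Tigit*, *Cd160*), 5 at FDR < 0.05, 2 with the GC trend removed, 4 with all 18 samples in 1 fit, 3 without CD25 KO mice 2 and 4, and 1 to 2 without 1 mouse (*Ctla4* joined without CD25 KO mouse 2 or 4). The 4 of the fit of 18 samples were *Ctla4*, *Tigit*, *Cd160* and *Havcr2*, and *Havcr2* entered that fit only through the splenic groups. In the spleen and for the difference, 4 to 5 were called without 1 mouse, and 6 to 7 between WT Tregs, with *Havcr2* included in the counts of the last 2.

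Directions turned for uncalled changes only. *Cd96* in the thymus was -0.02 with the GC trend removed, -0.023 with the replicate block and GC, and -0.008 to 0.075 without 1 mouse. *Cd226* in the thymus was -0.329 and -0.331 under the same 2 settings, and its difference 0.329 with the GC trend removed and -0.15 to 0.059 without 1 mouse. The *Btla* difference was 0.132 with the GC trend removed, *Cd96* between WT Tregs -0.005 without the filter and -0.029 to 0.041 without 1 mouse, and *Cd160* in the spleen -0.091 to 0.029 without 1 mouse.

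All DE genes numbered 1047 in the thymus, 2763 with DESeq2, 3951 at FDR < 0.05, 2881 in the fit of 18 samples, 2008 without CD25 KO mice 2 and 4, and 371 to 1087 without 1 mouse (371 to 428 without WT mouse 2, 3 or 5 or CD25 KO mouse 1 or 3). In the spleen 1651 became 3001 at FDR < 0.05, 795 in the fit of 18 samples and 1099 (without WT mouse 3) to 1723. For the difference, 1305 became 2188 with DESeq2, 3149 at FDR < 0.05, 2307 without mice 2 and 4 and 817 (without splenic CD25 KO mouse 2) to 1489. Upper-quartile scaling gave 808 higher and 440 lower genes in the thymus, against 539 and 508, and removal of the GC trend 339 and 457. In the spleen upper-quartile scaling gave 920 and 769, against 1031 and 620. The causes were not tested.

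The labels give thymic mice the numbers 1 to 5 in both genotypes. Deviations of same-numbered mice correlated at -0.238 to 0.144 and 1 of 5 mice correlated best with its own number, so the numbers were not taken as pairs. The replicate block left 1 receptor (*Tigit*) and 209 genes called, and 212 genes with the GC trend removed as well. The splenic labels share no such numbers. Depth limits the thymic comparison of *Havcr2*, at 0 to 28 counts. *Havcr2*, *Klrg1* and *Cd80* had no value in thymic or joint fits that required at least 10 counts in every sample.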
